A study of Mus musculus with 40 samples.

Results

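This report follows 9 immune checkpoint and regulatory T cell genes through squamous lesions of the mouse lung. They were chosen by name from the 37310 genes of the deposited table, and they are the ligands Cd274 and Pdcd1lg2, the receptors Pdcd1, Ctla4, Lag3, Havcr2 and Icos, and the regulatory T cell genes Foxp3 and Il2ra. The study exposed female A/J and SWR/J mice, entered at about 8 weeks of age, to N-nitroso-tris-chloroethylurea (NTCU), a carcinogen painted on the skin that gives rise to squamous dysplasia and squamous cell carcinoma (SCC) of the airways. It sequenced polyadenylated RNA from 40 frozen samples, of which 25 passed the authors' quality control and were used here. A sample was either tissue cut out by laser capture microdissection (LCM, 13 samples) or a section of whole lung (12 samples), and 8 came from A/J and 17 from SWR/J mice.

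The 7 normal samples came from mice given the acetone vehicle with 0 umol NTCU, and were 2 LCM and 1 whole lung sample of A/J and 1 LCM and 3 whole lung samples of SWR/J. The 5 samples of mild dysplasia, 3 LCM and 2 whole lung, were all from SWR/J mice with a total of 15 umol NTCU, so this grade was not seen in A/J. The 13 high-grade samples were 9 of moderate to severe dysplasia (14 umol in A/J, 25 to 30 umol in SWR/J), 2 of severe dysplasia (50 umol, SWR/J), 1 SCC tumor by LCM and 1 carcinoma in situ in whole lung (both 20 umol, A/J). Dosing ran for 14 to 25 weeks in the series as a whole, so grade, dose and strain moved together. The labels did not tie samples to animals, so LCM and whole lung samples may share one, in which case the p-values are too small. For 2 of the 25 samples the description and the grade field disagreed: mild replicate 5 was described as normal, and normal replicate 7 as mild dysplasia. The grade field was used.

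Immune checkpoints are pairs of receptors and ligands that restrain or license T cells. PD-1 (Pdcd1) and CTLA-4 (Ctla4) are inhibitory receptors that appear on activated T cells, and PD-L1 (Cd274), made by many epithelial and myeloid cells and raised by interferon gamma, engages PD-1. Regulatory T cells, which are defined by the transcription factor Foxp3 and carry much of the interleukin-2 receptor alpha chain (Il2ra) and CTLA-4, hold other T cells in check, and in epithelial tumors both systems are studied as routes of immune escape.

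Expected counts summed to between 2667387 and 16534728 per library, with a median of 9075416, and median TIN, a score of RNA integrity, ran from 21.7 to 75.1. A group of libraries stood apart by genes of developing thymocytes. Rag1, which rearranges antigen receptor genes in immature lymphocytes, exceeded 10 CPM (counts scaled to library size) in 9 of the 25 libraries, at 35.9 to 1038 CPM, and was at most 9.09 CPM in the other 16. These 9 libraries were 5 of the 7 normal, 0 of the 5 mild and 4 of the 13 high-grade samples, from both strains and both kinds of tissue. The summed CPM of the 7 thymocyte markers ran from 39.8 to 2642 in normal, 12.5 to 45.5 in mild and 3.70 to 1598 in high-grade samples. The summed CPM of the 13 T cell markers ran from 251 to 6805, from 42.5 to 289 and from 22.6 to 4561. Every comparison of grades below therefore also compared libraries that differed in T cell and thymocyte RNA, and in bulk RNA fewer cells of a type cannot be told apart from less RNA per cell. The 7 airway epithelium markers summed to at least 640 CPM in all 25 libraries.

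The positions given here are those of the annotation of mm9, the build of the deposited table. Cd274 (chr19:29441945-29462585) and Pdcd1lg2 (chr19:29485409-29545647) are neighbors on the plus strand of chromosome 19. Ctla4 (chr1:60943844-60972676) and Icos (chr1:61034771-61057164) are close to each other on the plus strand of chromosome 1, and Pdcd1 (chr1:95934884-95949130) is on its minus strand. Lag3 is at chr6:124854379-124861723 (minus), Havcr2 at chr11:46268437-46294757 (plus), Il2ra at chr2:11564419-11614818 (plus) and Foxp3 at chrX:7156802-7172369 (plus).

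Of the 5 members that passed the test between mild dysplasia and normal samples, RefSeq's table of promoters (GRCm38.p6) held 4, and the 250 bases before a start site were each found once in mm9. They are shown because their genes passed this test. None of the windows overlapped an exon of its gene. The Ctla4 window and the second Foxp3 window, which lie within the annotated genes, are shown with their motif matches in capitals, and the 2 other windows shown had no match to any of the 4 motifs searched. The first Foxp3 window (chrX:7156552-7156801), before the annotated start, had no match either and is not shown.
Pdcd1, chr1:95949131-95949380, minus strand: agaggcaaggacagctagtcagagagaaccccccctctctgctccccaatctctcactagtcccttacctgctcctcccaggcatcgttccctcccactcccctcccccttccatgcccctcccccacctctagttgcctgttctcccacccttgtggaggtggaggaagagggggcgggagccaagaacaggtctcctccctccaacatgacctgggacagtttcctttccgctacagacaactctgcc
Ctla4, chr1:60965619-60965868, plus strand: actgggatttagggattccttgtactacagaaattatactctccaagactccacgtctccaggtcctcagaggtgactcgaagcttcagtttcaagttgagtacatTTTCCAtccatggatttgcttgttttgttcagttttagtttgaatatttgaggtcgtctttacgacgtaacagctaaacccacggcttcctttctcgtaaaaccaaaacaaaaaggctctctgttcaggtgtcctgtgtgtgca
Il2ra, chr2:11564169-11564418, plus strand: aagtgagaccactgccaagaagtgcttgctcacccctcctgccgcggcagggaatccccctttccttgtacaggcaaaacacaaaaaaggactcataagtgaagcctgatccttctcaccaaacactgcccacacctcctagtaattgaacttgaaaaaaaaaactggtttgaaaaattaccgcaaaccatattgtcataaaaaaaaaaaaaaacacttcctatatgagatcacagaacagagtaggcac
Foxp3, chrX:7157359-7157608, plus strand: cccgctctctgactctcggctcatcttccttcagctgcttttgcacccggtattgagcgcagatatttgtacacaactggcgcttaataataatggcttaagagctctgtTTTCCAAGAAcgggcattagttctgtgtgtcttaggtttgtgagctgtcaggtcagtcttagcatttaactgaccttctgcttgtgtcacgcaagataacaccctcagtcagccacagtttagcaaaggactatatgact
The motifs searched, on both strands, were the core of an NFAT site (TGGAAA), the GAS element that STAT factors bind (TTCNNNGAA), the core of an interferon-stimulated response element and an NFkB consensus site. The NFAT core was found on the minus strand 144 bases before the Ctla4 start and 140 bases before the Foxp3 start, and in Foxp3 it overlapped a GAS match that began 139 bases before the start. Among 27025 promoters of the same length, 18.7% held the NFAT core, 7.18% the GAS element, 3.04% the interferon element and 0.130% the NFkB site, so each match is a description of the letters only.

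Per kilobase of exon, the PD-L1 gene was the most abundant of the 9 transcripts. Its median over the 25 libraries was 5.72 CPM per kb, followed by Foxp3 at 2.96, Pdcd1 at 1.64, Ctla4 at 1.64, Havcr2 at 1.59, Icos at 1.55, Lag3 at 0.969, Il2ra at 0.906 and Pdcd1lg2, the second PD-1 ligand, at 0.701 CPM per kb. The quartile ranges of Pdcd1 (0.674 to 3.18 CPM per kb), Ctla4 (0.923 to 3.04), Havcr2 (1.16 to 1.86) and Icos (0.706 to 2.6) overlapped throughout, so these neighbors in the order did not differ beyond their spread. In high-grade samples Foxp3 (4.0 CPM per kb) stood above Cd274 (3.40), with overlapping ranges. The members differed in how much they varied: Foxp3 spanned 4.86-fold from the lowest to the highest library in CPM, Havcr2 11.4-fold and Cd274 14.9-fold, whereas Ctla4 spanned 81.6-fold and Icos 88.7-fold.

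**Figure D1:**
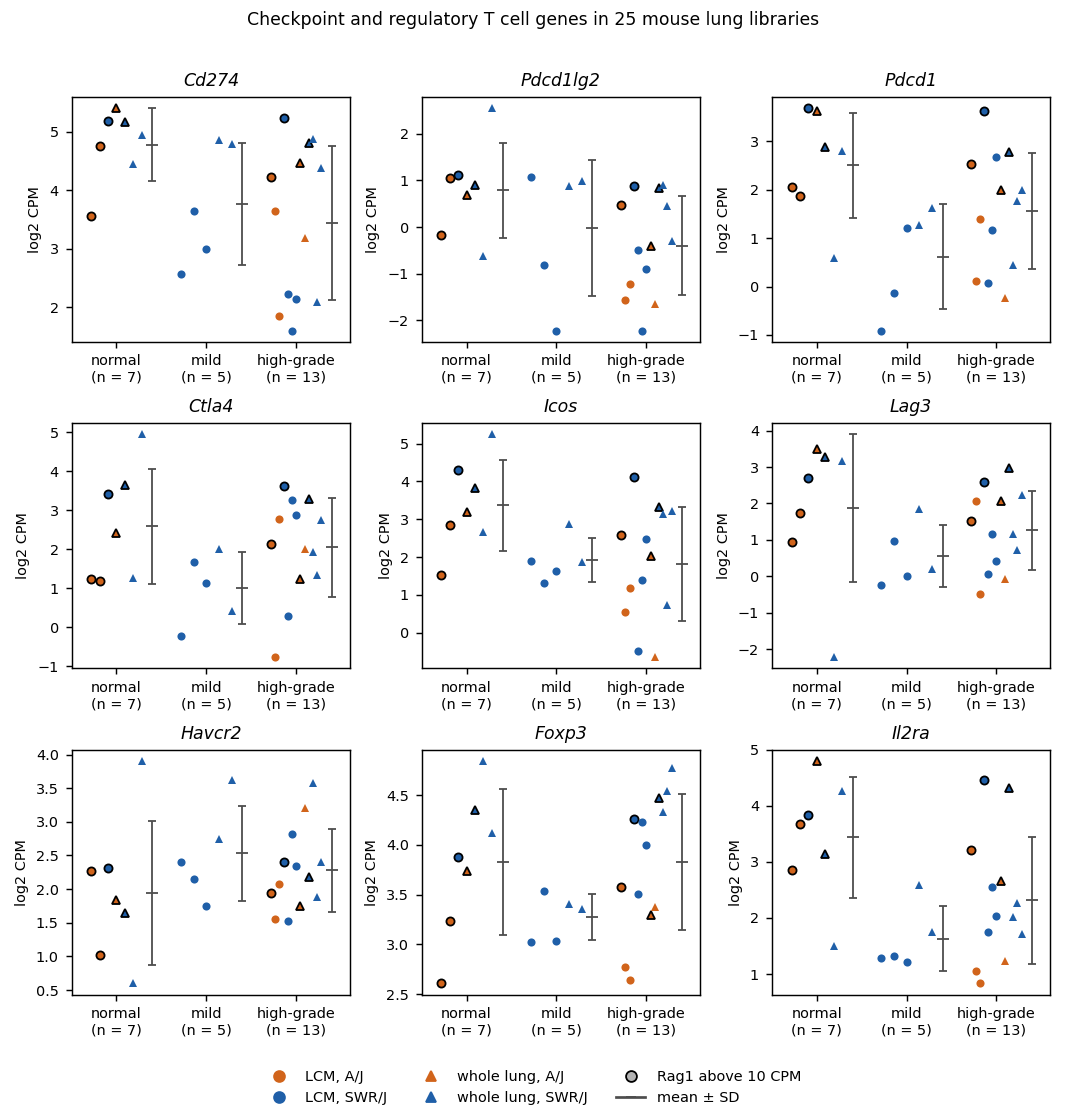
Level of each of the 9 genes in the 25 libraries as log2 CPM (vertical axes), by grade (normal, n = 7, mild dysplasia, n = 5, high-grade, n = 13). Circles are LCM and triangles whole lung samples, orange is A/J and blue SWR/J, black rings mark the 9 libraries with Rag1 above 10 CPM, and bars give the mean ± SD. Foxp3 occupies the narrowest range of the 9 genes, and the 5 mild samples lie under the normal median for Cd274, Pdcd1, Ctla4, Lag3, Icos, Foxp3 and Il2ra.

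Of the 3 groups, mild dysplasia had the lowest median CPM of Pdcd1, Ctla4, Lag3, Icos, Foxp3 and Il2ra. It also had the lowest median of Cd274, by a small margin (12.29 CPM against 12.33 CPM in high-grade samples). Pdcd1, Ctla4, Icos, Il2ra and Foxp3 were lower in mild dysplasia than in normal samples. Adjusted for TIN, strain and tissue, the first 4 were lower by 2.52 to 2.73 on the log2 scale and Foxp3 by 0.81. Unadjusted mean log2 CPM values lay closer together, at 0.61 in mild against 2.50 in normal samples for Pdcd1 and 0.997 against 2.59 for Ctla4. They were 1.92 against 3.37 for Icos, 1.63 against 3.44 for Il2ra and 3.27 against 3.83 for Foxp3. The ligand Cd274 and the receptors Lag3 and Havcr2 did not pass the test. Of the 8 members tested (Pdcd1lg2 was removed by the filter on low values), 5 were lower and 0 higher in edgeR's quasi-likelihood test with Benjamini-Hochberg adjusted p under 0.05, against 12.4% of the 15630 genes in either direction and 7.24% lower. An unadjusted p under 0.05 was reached by 7 members, against 32.7% of all genes, and DESeq2 called 6, against 23.4%. The members' median log2 fold change was -2.33, and that of all genes tested was -0.02.

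Cd274 was measured at 11.6 to 42.2 CPM in normal samples (median 30.6). In mild dysplasia it was at 5.70, 12.3 and 7.73 CPM in the LCM samples and at 29.0 and 27.6 CPM in the whole lung samples. Of the mild LCM samples 2 were below the lowest normal sample, the other mild samples were within the normal range, and the difference did not pass the test (log2 fold change -1.31, SE 0.56, adjusted p = 0.114). Pdcd1lg2 had a median of 1.64 CPM in normal and 1.63 CPM in mild samples and was at 0 in 1 mild library. Without a filter on low counts, its log2 fold change was -1.28 (SE 0.84, adjusted p = 0.368).

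Pdcd1, the receptor for both ligands, ranged from 1.30 to 12.6 CPM in normal samples with a median of 6.71 CPM. In mild dysplasia it was at 0.317, 0.702 and 2.10 CPM in LCM and at 2.19 and 2.88 CPM in whole lung samples, on 1, 4, 16, 39 and 31 counts. Of the normal samples 6 of 7 were above the highest mild sample, the exception being normal replicate 4, and the log2 fold change was -2.73 (SE 0.76, adjusted p = 0.0289). Ctla4, which outcompetes CD28 for its ligands, ranged from 2.04 to 30.5 CPM in normal samples (median 5.16). Its mild samples were at 0.634, 2.98 and 1.97 CPM by LCM and 3.82 and 1.11 CPM in whole lung. All 5 were under the normal median, with 4 of 7 normal samples above the highest of them (log2 fold change -2.63, SE 0.72, adjusted p = 0.0276).

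Icos, a costimulatory receptor of activated and regulatory T cells, ranged from 2.68 to 37.6 CPM in normal samples (median 8.93). It was at 3.49, 2.28 and 2.88 CPM in the mild LCM and at 7.13 and 3.44 CPM in the mild whole lung samples. The groups overlapped, with 4 of 7 normal samples above the highest mild sample (log2 fold change -2.52, SE 0.68, adjusted p = 0.0275). Lag3, an inhibitory receptor for MHC class II, ranged from 0 (normal replicate 4) to 11 CPM in normal samples, with a median of 6.27 CPM. Its mild samples were at 0.634, 1.76 and 0.786 CPM by LCM and 3.37 and 0.929 CPM in whole lung. They were under the normal median in 5 of 5 cases, but the difference missed the threshold (log2 fold change -2.14, SE 0.80, adjusted p = 0.0747), and DESeq2 put it under the threshold (adjusted p = 0.0250). Havcr2, the TIM-3 receptor of exhausted T cells and of myeloid cells, was the member that did not share this direction, at 1.30 to 14.8 CPM in normal (median 3.36) and 3.15 to 12.1 CPM in mild samples (median 5.07), with a log2 fold change of 0.16 (SE 0.48, adjusted p = 0.847). Its direction was negative within LCM (-0.19) and within whole lung (-0.56).

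Il2ra ranged from 2.6 to 27.7 CPM in normal samples with a median of 12.6 CPM. In mild dysplasia it was at 2.22, 2.28 and 2.10 CPM by LCM and at 5.78 and 3.16 CPM in whole lung samples. Again 6 of 7 normal samples were above the highest mild sample, and normal replicate 4 was the low one (log2 fold change -2.56, SE 0.73, adjusted p = 0.0305). Of the 5 called members, Foxp3 had the smallest fold change and the smallest SE. It ranged from 5.87 to 28.6 CPM in normal samples (median 14.5) and was at 7.92, 11.4 and 8.0 CPM in the mild LCM and 10.4 and 10.03 CPM in the mild whole lung samples. The mild values lay inside the normal range and under its median, with a log2 fold change of -0.81 (SE 0.21, adjusted p = 0.0263).

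The calls between mild and normal samples were lost in some fits that left out 1 library, where fewer of all genes passed too. No member passed without normal replicate 1 or without mild replicate 4, where the adjusted p of the 5 genes did not exceed 0.0747. In these fits 644 and 643 of all genes passed, against 1945 with all libraries. The log2 fold changes stayed near those above, for example -2.53 and -2.91 for Pdcd1 and -0.82 and -0.76 for Foxp3. With the same test, 1 member passed without mild replicate 1 or 3, and 2 passed without mild replicate 2, mild replicate 5 or normal replicate 5. There, 767 to 1089 of all genes passed. None passed when the histology of the description replaced the grade field for the 2 samples in conflict (adjusted p of at least 0.291), within LCM samples (at least 0.383) or within whole lung samples (at least 0.147), whereas within SWR/J, which holds all mild samples, Pdcd1, Ctla4, Icos, Foxp3 and Il2ra passed (11.9% of all genes did). Within LCM and within whole lung samples 0 of all genes tested passed, so the fits of these subsets do not single out the members.

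T cell and thymocyte genes moved with the members. Cd3e, a subunit of the T cell receptor complex, ran from 5.19 to 181 CPM in normal and from 1.44 to 15.8 CPM in mild samples (log2 fold change -5.15, SE 1.43, adjusted p = 0.0290), and 12 of the 13 T cell markers were lower in mild dysplasia with a median log2 fold change of -5.19, among them Zap70 (-4.85), Cd3d (-6.26), Cd5 (-4.43) and Lck (-6.29). Of the thymocyte markers, 5 of 6 tested were lower, including Rag2, Ccr9, Arpp21 and Dntt. Rag1 ran from 2.13 to 1038 CPM in normal and from 0 to 0.650 CPM in mild samples, and Ptcra was at 0 in the 5 mild libraries. With the mean log2 CPM of the thymocyte markers as a further covariate, an alternative added after the data were seen, 0 of the 8 members passed, against 1.91% of all genes, with log2 fold changes of -2.56 for Ctla4 (adjusted p = 0.107), -1.73 for Icos (0.179), -1.24 for Pdcd1 (0.335), -1.10 for Il2ra (0.272) and -0.56 for Foxp3 (0.216), and 3 members had an unadjusted p under 0.05. Without the 9 libraries with Rag1 above 10 CPM, which left 2 normal samples, 0 members and 0% of all genes passed, and the log2 fold changes were -3.24 for Ctla4 (adjusted p = 0.157), -2.69 for Icos (0.159), -1.88 for Il2ra (0.140), -1.74 for Pdcd1 (0.309) and -0.64 for Foxp3 (0.271). All 8 members were negative under both alternatives. Ctla4 thus had about the same or a larger fitted difference, while Pdcd1 and Cd274 (-0.11 and -0.24) had smaller ones. T cell markers also stayed below 0 in the covariate fit and in the fit without high-Rag1 libraries, in that order. Cd3d was at -2.76 and -4.13, Cd3e at -1.22 and -2.53, Cd4 at -0.93 and -2.34, and Cd8a at -1.40 and -2.90. Of these values, Cd3d in the covariate fit passed (edgeR, adjusted p = 0.0481). The 2 normal samples left without the high-Rag1 libraries were both whole lung samples of SWR/J, so that fit held no normal sample by LCM or from A/J. They were at 2.16 and 30.5 CPM of Ctla4, so the value of Ctla4 there leans on 1 library. When the library at 30.5 CPM (normal replicate 5) alone was left out of the main fit, Ctla4 had a log2 fold change of -2.12 (edgeR, adjusted p = 0.0700).

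**Figure D2:**
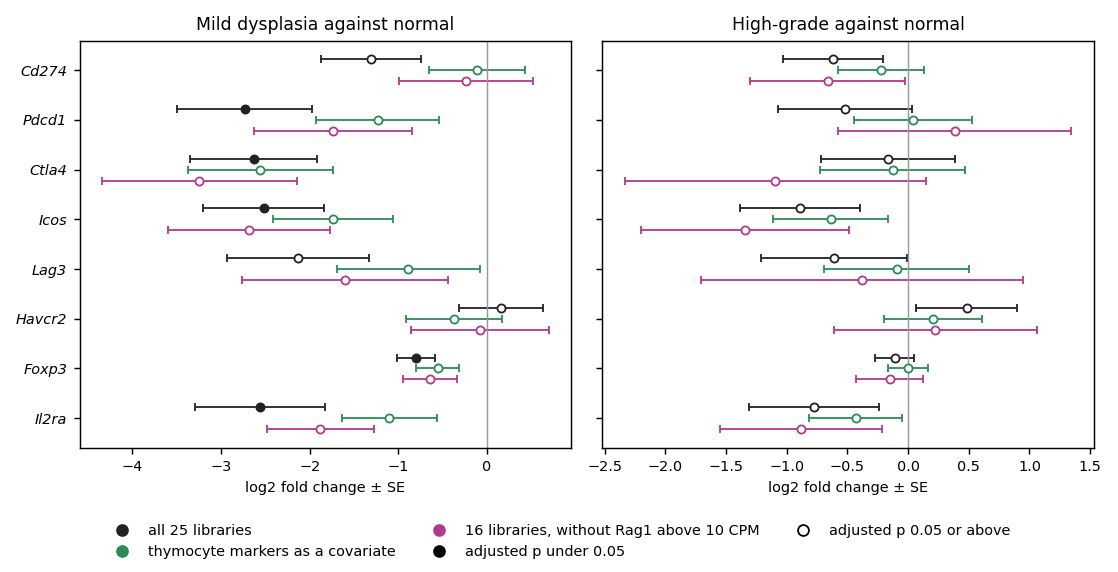
Log2 fold changes ± SE of the 8 members tested, for mild dysplasia against normal and for high-grade against normal. They are given in all 25 libraries, with the thymocyte markers as a covariate, and in the 16 libraries without high Rag1. Filled symbols have an adjusted p under 0.05, and the 5 filled symbols all belong to mild dysplasia against normal in the 25 libraries.

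**Figure D3:**
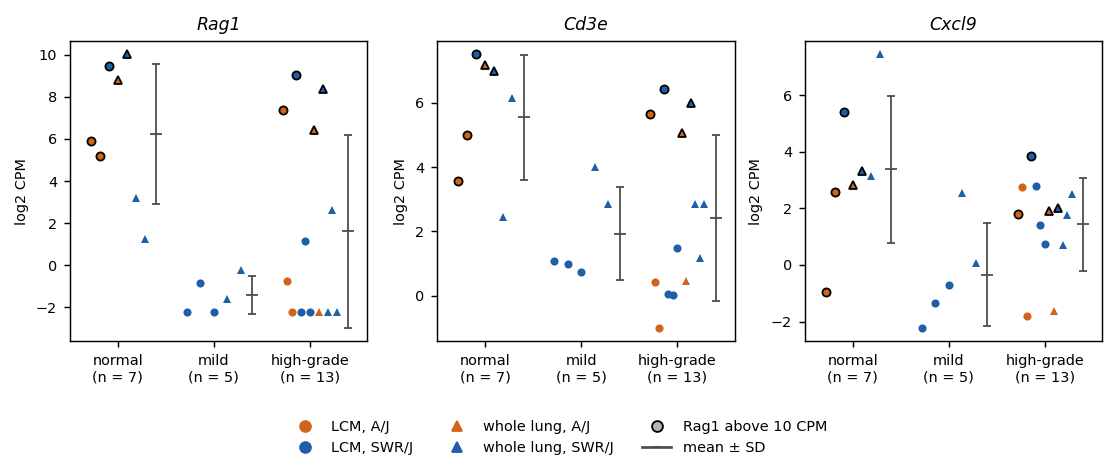
Rag1, Cd3e and Cxcl9 in the 25 libraries by grade as log2 CPM, with symbols as in the plot of the members' levels. Rag1 separates 9 libraries at 35.9 CPM or more from the other 16, and none of these 9 is of mild dysplasia.

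Genes that work with the members showed the same contrast in part. Of all genes tested, 7.24% were lower in mild dysplasia and 12.4% were called in either direction. Of 21 checkpoint partners tested, 3 were lower in mild dysplasia and 3 higher, with a median log2 fold change of -0.42. Cd28, the costimulatory receptor that shares its ligands with CTLA-4, was lower (-4.24), as was the receptor Cd160 (-2.46), and the epithelial ligands Ceacam1 (2.81) and Vtcn1 (2.66) were higher. Of 19 regulatory T cell partners, 7 were lower and 1 higher (median -0.86). The costimulatory receptors Tnfrsf18 (GITR, -1.91), Tnfrsf9 (4-1BB, -2.06) and Tnfrsf4 (OX40, -1.86) were lower, and Lrrc32 (GARP, 1.71), which anchors latent TGF-beta on regulatory T cells and other cells, was higher. In the interferon gamma pathway 7 of 13 genes were lower and 0 higher (median -1.15), with the chemokines Cxcl9 (-5.98) and Cxcl10 (-4.82), the feedback inhibitor Socs1 (-3.99) and the peptide transporter Tap1 (-1.53). These values are log2 fold changes with an adjusted p under 0.05. With the thymocyte markers as a covariate, 0 of 21 checkpoint partners, 1 of 19 regulatory T cell partners (Tnfrsf9, -2.44) and 1 of 13 interferon gamma pathway genes (Cxcl9, -5.93) remained under the threshold, and Cd28 was at -0.60 (adjusted p = 0.664). In that fit 1.91% of all genes passed. The Cd28 call was lost in 10 and the Cd160 call in 13 of the 25 fits that left out 1 library.

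Markers of other cell types were less uniform. In mild dysplasia against normal, 2 of 8 cytotoxic cell markers were lower (Nkg7, -3.39, and Gzmb, -2.32, median of the list -2.38), as were 2 of 7 dendritic cell markers (Ccl22, -2.90, and Ccr7, -3.40, median -1.32). The call was made for 0 of 7 B cell markers (median -1.62), 0 of 10 macrophage markers (0.14), 0 of 7 airway epithelium markers (1.37) and 0 of 6 alveolar and vessel markers (1.41), with an unadjusted p under 0.05 for 1, 5, 3 and 2 of them. Of all genes, 12.4% were called (7.24% lower) and 32.7% had an unadjusted p under 0.05. The part of these cell types in the members' levels was not tested.

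High-grade samples did not differ detectably from normal samples in any member. Cd274 ranged from 2.82 to 37.4 CPM (median 12.3), Pdcd1 from 0.636 to 12.2 (3.17), Ctla4 from 0.374 to 12.1 (4.17), Lag3 from 0.498 to 7.72 (2.04), Havcr2 from 2.66 to 11.7 (4.32), Icos from 0.424 to 17.2 (3.85), Foxp3 from 6.04 to 27.2 (15.8) and Il2ra from 1.56 to 21.8 CPM (3.87). For each of the 8 genes the high-grade and normal ranges overlapped, although 12 of 13 high-grade samples were under the normal median for Cd274, Pdcd1 and Lag3 and 11 of 13 for Il2ra. edgeR called 0 of the 8 members, against 0.0192% of all genes (3 genes), 0 had an unadjusted p under 0.05 (9.14% of all genes), and DESeq2 called 0. The log2 fold changes were -0.89 for Icos, -0.77 for Il2ra, -0.62 for Cd274, -0.61 for Lag3, -0.52 for Pdcd1, -0.17 for Ctla4, -0.11 for Foxp3 and 0.48 for Havcr2, with adjusted p from 0.60 to 0.933 and a median of -0.56 (all genes, -0.01). The signs of Pdcd1, Ctla4, Foxp3, Il2ra and Havcr2 turned under at least 1 alternative. Pdcd1lg2, at 0 to 1.66 CPM in high-grade samples (median 0.538), had a log2 fold change of -0.97 without a filter (SE 0.64, adjusted p = 0.708).

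None of the partner lists held a called gene in this comparison. The median log2 fold change was 0.12 for the checkpoint partners, -0.28 for the regulatory T cell partners, -0.45 for the interferon gamma pathway and -1.09 for the T cell markers, and 6 of 21, 2 of 19, 3 of 13 and 0 of 13 genes had an unadjusted p under 0.05, against 9.14% of all genes.

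Relative to mild dysplasia, all 8 members had positive log2 fold changes in high-grade samples (49.1% of all genes were below 0), with a median of 1.57. With the thymocyte markers as a covariate 7 of 8 were positive, with a median of 0.73, and without the high-Rag1 libraries 7 of 8, with a median of 1.11, Cd274 being below 0 in both. These are values adjusted for TIN, strain and tissue, and no mild sample was from A/J. The unadjusted mean log2 CPM was lower in high-grade than in mild samples for Cd274 (3.44 against 3.77), Icos (1.81 against 1.92) and Havcr2 (2.28 against 2.53). It was higher for the other members tested. Over the 25 libraries edgeR called none of the 8, against 0.326% of all genes. An unadjusted p under 0.05 was reached by 5 members (22.5% of all genes), and DESeq2 called Pdcd1, Ctla4 and Foxp3, against 8.81%. Ctla4 had the largest difference (log2 fold change 2.47, SE 0.73, adjusted p = 0.0814). The highest mild sample was exceeded by 8 of 13 high-grade samples. It passed without high-grade replicate 9 (adjusted p = 0.0408). The difference in Foxp3 was 0.70 (SE 0.22, adjusted p = 0.0892), and again the highest mild sample was exceeded by 8 of 13. The others were 2.21 for Pdcd1 (SE 0.79, adjusted p = 0.116), 1.79 for Il2ra (0.139), 1.62 for Icos (0.151), 1.52 for Lag3 (0.266), 0.69 for Cd274 and 0.32 for Havcr2. Both comparisons with mild dysplasia share its 5 samples, so they are not separate evidence of its low levels. Cd3e had a log2 fold change of 3.92 here (SE 1.37, adjusted p = 0.11).

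Over grades ranked from normal to carcinoma, 0 of the 8 members were called, against 0.262% of all genes, and 1 had an unadjusted p under 0.05, a share near the 13.7% of all genes. This was Cd274, with a slope of -0.36 log2 per grade (SE 0.16, p = 0.0382, adjusted p = 0.334), which was -0.15 with the thymocyte markers as a covariate (p = 0.277). DESeq2 called 0, with 3 under an unadjusted p of 0.05.

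Between LCM and whole lung samples 1 member, Foxp3, was called, a share near that of all genes. Foxp3 was at 5.87 to 19.0 CPM in the 13 LCM samples (median 11.1) and 9.59 to 28.6 CPM in the 12 whole lung samples (median 18.6), with overlapping ranges. The log2 fold change was -0.43 (SE 0.13, adjusted p = 0.0340), and Foxp3 was the 1 of 8 members called, against 14.6% of all genes, or 8.93% lower. An unadjusted p under 0.05 was reached by 2 members, against 30.3% of all genes. This call was lost in 14 of the 25 fits that left out 1 library (normal replicates 1, 4 and 6, mild replicates 1, 3, 4 and 5, high-grade replicates 2, 3, 4, 6, 7, 8 and 11), where its adjusted p rose to at most 0.0875. Cd274 was at 2.82 to 37.4 CPM by LCM (median 11.6) and 4.03 to 42.2 CPM in whole lung (median 27.7), a log2 fold change of -0.80 that missed the threshold (SE 0.35, adjusted p = 0.125) and passed without high-grade replicate 1 (adjusted p = 0.0309). All 8 members had log2 fold changes below 0, from -0.80 to -0.04, as did 52.3% of all genes. Those below 0 were 7 of 8 with the thymocyte markers as a covariate, 6 of 8 without the high-Rag1 libraries and 6 of 9 within SWR/J, and the signs of Ctla4, Il2ra and Pdcd1 also turned when single libraries were left out.

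Some partner genes were lower by LCM, as were 8.93% of all genes. Among checkpoint partners 5 of 21 were lower, among them Sirpa (-1.16), the receptor of the signal Cd47 (-0.59), and Vsir (VISTA, -0.87), while Vtcn1 was higher (2.20). Of the regulatory T cell partners 3 of 19 were lower (Tgfb1, -1.87, Nrp1, -1.09, and Batf, -0.90), and of the interferon gamma pathway 1 of 13 (Ciita, -1.67), a share under that of all genes. Beside these, 5 of 6 alveolar and vessel markers (Cdh5, -2.28) and 6 of 7 B cell markers (Pax5, -3.07) were lower. So were 3 of 10 macrophage markers (Marco, -4.52) and 2 of 7 dendritic cell markers (Zbtb46, -0.94). Macrophage markers were not uniform, since Cd14 was higher by LCM (1.89, adjusted p = 0.00230 in edgeR). Epcam was higher (1.23) and was the only airway epithelium marker called. In contrast, 0 of 13 T cell, 0 of 6 thymocyte and 0 of 8 cytotoxic cell markers passed, with an unadjusted p under 0.05 for 0, 0 and 1 of them. With the thymocyte markers as a covariate, 6 of the 13 T cell markers were lower by LCM, among them Cd3d (-1.22, adjusted p = 0.0345) and Cd8a (-1.40, adjusted p = 0.0333), and Cd274 passed beside Foxp3 (-0.93, adjusted p = 0.0283). DESeq2 also called Foxp3 alone among the members, against 21.4% of all genes.

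Between the strains no member passed the test. The Foxp3 values of the strains lay apart or nearly so within normal and high-grade samples, but the share of all genes that do so was not computed. Among normal samples Foxp3 was at 5.87, 9.22 and 13.1 CPM in the 3 A/J and at 14.5 to 28.6 CPM in the 4 SWR/J samples, and these few values did not overlap. Among high-grade samples it was at 6.04 to 11.7 CPM in the 5 A/J (median 9.59) and 11.1 to 27.2 CPM in the 8 SWR/J samples (median 19.4), where the ranges overlapped slightly. The log2 fold change was -0.77 (SE 0.20, adjusted p = 0.0632).

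Icos and Ctla4 had larger fitted differences between the strains. Normal samples of Icos were at 2.68 to 8.93 CPM in A/J and 6.06 to 37.6 CPM in SWR/J, and high-grade samples at 0.424 to 5.76 and 0.498 to 17.2 CPM (log2 fold change -2.28, SE 0.59, adjusted p = 0.0613). Ctla4 was at 2.04 to 5.16 CPM in normal A/J and 2.16 to 30.5 CPM in normal SWR/J samples (log2 fold change -2.14, SE 0.64, adjusted p = 0.108). The strains overlapped in both genes within each grade. edgeR called 0 of 8 members, against 0.992% of all genes, 3 had an unadjusted p under 0.05 (17.5% of all genes), and DESeq2 called these 3 (6.15%). Icos and Foxp3 passed in edgeR without high-grade replicate 2, 5 or 9, with adjusted p down to 0.0147 and 0.0206. All 8 members had log2 fold changes below 0 (48.7% of all genes did). These were adjusted for grade, TIN and tissue, and no mild sample was from A/J. The unadjusted mean log2 CPM was slightly higher in A/J for Pdcd1 (1.67 against 1.62) and Lag3 (1.41 against 1.24). The same held for Il2ra (2.54 against 2.47) and Cd274 (3.89 against 3.88), and it was lower for the other members tested. Of the partners, Cd47 was lower in A/J (log2 fold change -1.05, adjusted p = 0.00973), as was the dendritic cell marker Ccl22 (-1.78, adjusted p = 0.0412), a chemokine that attracts regulatory T cells. The Ccl22 call was lost in 14 of the 25 fits that left out 1 library and in 6 of 11 other settings, with log2 fold changes as small as -0.82 (adjusted p = 0.781), and that of Cd47 in 0 of 25 and 3 of 11. The median of the 13 T cell markers was -1.88 with 0 called and 3 under an unadjusted p of 0.05.

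Whether the high-grade effect differed between LCM and whole lung, or between A/J and SWR/J, was tested with an interaction term. edgeR and DESeq2 called 0 of 8 members in either test, and edgeR called 0% of all genes. An unadjusted p under 0.05 was reached by 0 members for tissue (7.15% of all genes) and by 1 for strain (4.34%), Il2ra (difference of log2 fold changes, A/J minus SWR/J, -1.95, SE 0.93, p = 0.0475, adjusted p = 0.970).

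Foxp3 spanned a narrow range while T cell genes spanned a wide one. The ratio of Foxp3 to Cd3e CPM ran from 0.0800 to 23 across libraries, a span of 287-fold, where Cd3e itself spanned 637-fold and Foxp3 4.86-fold. The ratios of Icos and Pdcd1 to Cd3e spanned 118-fold and 150-fold, so a wide span against Cd3e was not particular to Foxp3, and the highest ratio of Foxp3 rested on 2 counts of Cd3e. In the 10 libraries with Cd3e under 3 CPM (0 normal, 3 mild and 7 high-grade), Foxp3 was still at 6.04 to 23.1 CPM. In the same libraries Ctla4 was at 0.374 to 9.28 CPM, Icos at 0.424 to 5.32 CPM and Pdcd1 at 0.317 to 6.13 CPM, ranges that overlapped one another. The severe dysplasia sample by LCM (high-grade replicate 3) had 18.6 CPM of Foxp3 and 9.28 CPM of Ctla4 beside 0.807 CPM of Cd3e, and the SCC tumor had 6.04 CPM of Foxp3 and 6.61 CPM of Ctla4 beside 0.284 CPM of Cd3e.

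The Foxp3 locus overlaps genes on the opposite strand, and the library kit did not mark strand, so reads from shared exons cannot be told apart. The exons of Ccdc22, which encodes a subunit of an endosomal sorting complex, cover 590 of the exon bases of Foxp3 (14.9%), and those of Ppp1r3f 373 bases (9.44%). The same-strand model 4930524L23Rik shares 267 bases (6.75%) and had at most 1.37 CPM. Among all genes tested, Ccdc22 was the one whose log2 CPM resembled Foxp3 most (r = 0.91 over 25 libraries, 0.92 in the 16 with low Rag1 and 0.98 in the other 9, a description across libraries that share grade and strain). The ratio of Foxp3 to Ccdc22 ran from 0.376 to 1.05, a span of 2.78-fold. Ccdc22 was itself lower in mild dysplasia than in normal samples (log2 fold change -0.58, SE 0.16, adjusted p = 0.0280), with -0.39 for A/J against SWR/J (adjusted p = 0.195) and -0.21 for LCM against whole lung (adjusted p = 0.160), each in the direction of Foxp3, while Ppp1r3f had 0.80 in mild dysplasia (adjusted p = 0.182). The share of Foxp3 counts that came from Ccdc22 reads was not tested, so the Foxp3 values above are uncertain as a measure of regulatory T cells.

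**Figure D4:**
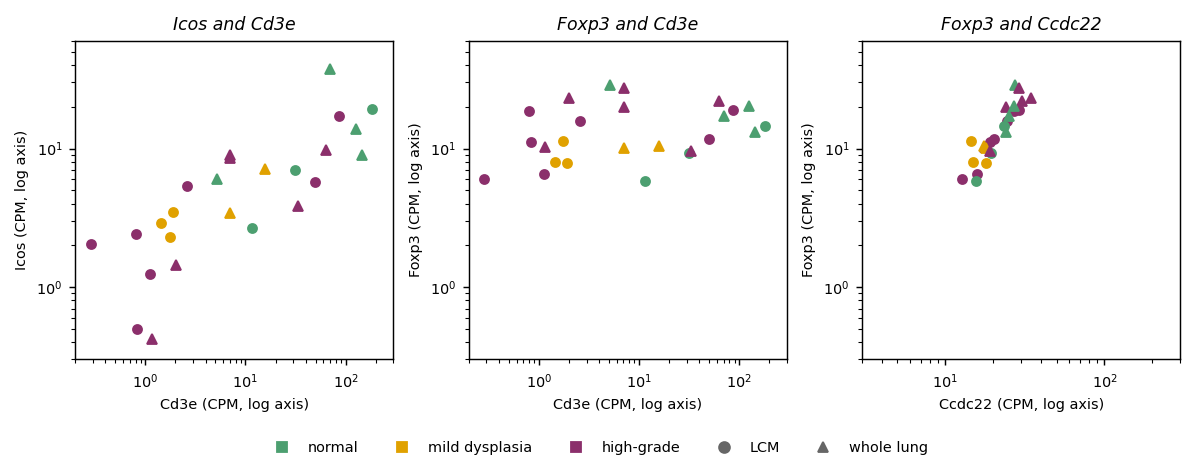
Icos and Foxp3 against the T cell gene Cd3e, and Foxp3 against its opposite-strand neighbor Ccdc22, in the 25 libraries. The gene named first is on the vertical axis, and all axes are CPM on a log scale. Colors mark grade, circles are LCM and triangles whole lung samples. Foxp3 and Ccdc22 rise together within a 2.78-fold range of their ratio, whereas Foxp3 stays between 5.87 and 28.6 CPM as Cd3e spans 637-fold.

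The genes most like each other member, by Pearson r of log2 CPM over the 25 libraries, differed between members. Il2ra was most like Gm17004 (r = 0.90), Zap70 (0.90) and Cd3g (0.90), and Icos like Il2rb (0.91), Gpr65 (0.90) and Fam189b (0.89), which include genes of the T cell receptor and interleukin-2 receptor. Pdcd1 was most like Tnfrsf8 (0.88), Prkcq (0.88) and Slain1 (0.87), and Lag3 like Sh3kbp1 (0.89), Stat5a (0.88) and Mterfd3 (0.87). Cd274 was most like Map4k2 (0.93), Grap2 (0.91) and Fmnl1 (0.91), genes of blood cell signaling, with r of 0.96 for Map4k2 in the 16 libraries with low Rag1 and 0.64 in the other 9. Havcr2 was most like Tbxas1 (0.83), the myeloid receptor Cd33 (0.81) and Gm6377 (0.78). Ctla4 was most like Mre11a (0.81), 1700029F09Rik (0.80) and Mthfd2 (0.80), and Foxp3, after Ccdc22, like Hn1 (0.90) and Ypel1 (0.87). The libraries share their T cell content and grade, so these values describe this set only.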

How the data were processed

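RNA was measured in 25 passed samples, in 3 groups by the grade label. The authors prepared unstranded TruSeq libraries from polyadenylated RNA. Single-end reads were trimmed (Trimmomatic) and aligned (STAR, 2 passes, mm9). The deposited values are RSEM expected counts without normalization, and 88.8% of them are whole. They removed 15 samples, mainly for few uniquely aligned reads, so depth limits what remains. Expected counts were rounded, and R 4.3.3 was used with edgeR 4.0.16 for the main test and DESeq2 1.42.0 as an alternative. edgeR's robust quasi-likelihood test with TMM scaling was run on 15630 genes (interquartile range above 0 and sum above 1 in log2 CPM, prior count 2), with median TIN, strain and tissue as covariates, and p-values were adjusted by Benjamini-Hochberg at 0.05. CPM used the TMM library sizes. The code was tested on simulated data. All 37310 gene IDs matched the NCBIM37 annotation. All members were described, with up to 4 called genes of each list by smallest p and the 3 genes most like each member. Members and lists were chosen with earlier results of these data known. It is not stated whether replicates are separate animals, so p-values measure the spread between these samples. Psmb9, with 2 gene models, was left out.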

Additional observations from a re-analysis of the deposited data

Results flagged for a closer look

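Havcr2 in 1 whole lung sample of moderate to severe dysplasia (high-grade replicate 9, SWR/J) was at 3.58 log2 CPM, or 11.7 CPM, far above the other 8 samples of that grade, which lay between 1.52 and 2.40 log2 CPM. It was the 1 sample that stood apart among 27 groups tested, and chance gives about 1 in 20 groups. The other flagged values come from the 15 libraries that did not pass quality control, which entered no comparison and held only 17051 to 1965370 counts. In plain CPM, some of them were above the highest normal sample. Pdcd1 and Lag3 reached 38.0 CPM and Il2ra 53.3 CPM in 1 library, on 10, 10 and 14 counts. Ctla4 reached 33.8 CPM in 1 library, on 29 counts, and Icos 62.9 CPM in 1 of 2 libraries, on 54 counts. Havcr2 reached 16.3 CPM in 1 library among those with more than 3 counts. Foxp3 was above the highest normal value of 19.1 CPM in 7 of the 15 libraries and reached 142 CPM, on 6 counts. These libraries have no replicate check at this depth, and intervals were not computed for them.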

How the results depend on the processing

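The comparisons were repeated with DESeq2, DESeq2's size factors, other filters, no TIN covariate, subsets of samples and the description's histology, and each library was left out in turn. The fits with thymocyte markers as a covariate and without the 9 high-Rag1 libraries were chosen after seeing the data. The 5 members called in mild dysplasia against normal became 0 within LCM, within whole lung, with the description's histology and in both added fits, and 0 to 6 in the fits that left out 1 library. Within LCM, within whole lung and without the high-Rag1 libraries, 0 of all genes passed as well. The count for high-grade against mild dysplasia (0) became 3 with DESeq2, 1 without TIN and 0 to 1 with 1 library left out. For LCM against whole lung, 1 became 0 without a filter, within SWR/J, with the description's histology, without TIN, with moderate to severe dysplasia as the only high grade and without high-Rag1 libraries, 2 with the thymocyte covariate, and 0 to 2 with 1 library left out. For A/J against SWR/J, 0 became 3 with DESeq2, 1 without TIN, 1 with the thymocyte covariate and 0 to 2 with 1 library left out. High-grade against normal, the rank of grade and both interactions gave 0 members in every fit run.

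Signs turned for some log2 fold changes that were not called. In high-grade against normal, Pdcd1 was 0.073 within LCM, 0.17 within SWR/J, 0.038 with the thymocyte covariate, 0.39 without high-Rag1 libraries and -0.77 to 0.16 with 1 library left out. Ctla4 was 0.49 within LCM and -0.40 to 0.11 with 1 left out, Havcr2 -0.14 and Foxp3 0.0055 within LCM, Foxp3 0.0010 without TIN, and Il2ra 0.25 within SWR/J. In mild dysplasia against normal, Havcr2 was -0.19 within LCM, -0.56 within whole lung, -0.37 with the thymocyte covariate, -0.081 without high-Rag1 libraries and -0.032 to 0.70 with 1 left out. In high-grade against mild dysplasia, Cd274 was -0.11 with the thymocyte covariate and -0.42 without high-Rag1 libraries, and Havcr2 was -0.11 without TIN. The cause was not tested, beyond the fewer samples that subsets and omissions hold. Over all genes, the calls in mild dysplasia against normal ranged from 0 to 3653 (1945 as reported), in high-grade against normal from 0 to 91 (3), in high-grade against mild dysplasia from 0 to 2339 (51), in LCM against whole lung from 378 to 3348 (2279), in A/J against SWR/J from 14 to 2493 (155) and for the rank of grade from 0 to 538 (41). No paired analysis was possible because the labels give no animal, litter or batch, and the replicate numbers only name samples. Depth limits Pdcd1lg2, Lag3 and Pdcd1, which rest on few counts in several libraries.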
